A study of Homo sapiens with 6 samples.

Results

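The genes described here are 39 genes of the type I interferon response, a list of gene symbols chosen for their known function and measured in A549 cells, an established line of human lung adenocarcinoma. Of the 39 genes 38 had a probe set that names 1 gene, out of 18417 genes measured, and STAT2 was not analysed here. Stable cells labelled as carrying a knockdown of H2AX (named P1 in the labels, 3 arrays) were compared with control stable cells (named C, 3 arrays). H2AX is the histone variant that is phosphorylated around DNA double-strand breaks. Cells of both groups had been starved of serum overnight and then given VP-16 (etoposide, which blocks topoisomerase II after it has cut DNA) for 48 h. All differences below are therefore between 2 groups of drug-treated cells, and no untreated cells were analysed here. The arrays of a group came from independent experiments, per the series' design text, and the number of stable clones behind each group is not given there, so the tests measure the spread between experiments.

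Type I interferons are secreted proteins that bind the receptor pair IFNAR1 and IFNAR2 and activate the kinases JAK1 and TYK2. A complex that holds STAT2 and IRF9 then enters the nucleus and binds a short DNA element, the interferon-stimulated response element, in the promoters of its target genes. The targets include sensors of viral RNA, proteins that degrade or sequester RNA, the ubiquitin-like protein ISG15 with its conjugating enzymes, and factors that amplify the response. Broken nuclear DNA that reaches the cytosol is known to start the same programme through the DNA sensor cGAS and its adaptor STING.

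None of the 38 measured interferon response genes passed the threshold in either direction (limma, adjusted p under 0.05 over all genes, lowest adjusted p = 0.224), where 6 of 18417 genes did, or 0.0326% (0.0271% lower and 0.00543% higher). The median difference over the 38 genes, knockdown-labelled minus control, was −0.06 on the log2 scale, beside −0.01 over all genes, with 16 genes above 0 and 22 below, where 48.5% of all genes were above 0 and 51.5% below. The lowest difference was −0.81, for PARP14, and the highest was 0.39, for MX2. The 95% interval of the difference lay within a 2-fold change in either direction for 36 of 38 members, beside 17673 of 18417 genes. The exceptions among the members were PARP14 and LGALS3BP, whose intervals reached below −1 on the log2 scale. No interval of a member reached a 2-fold higher signal. In RNA of bulk cells, fewer cells expressing a gene and less RNA of it per cell cannot be told apart.

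**Figure D1:**
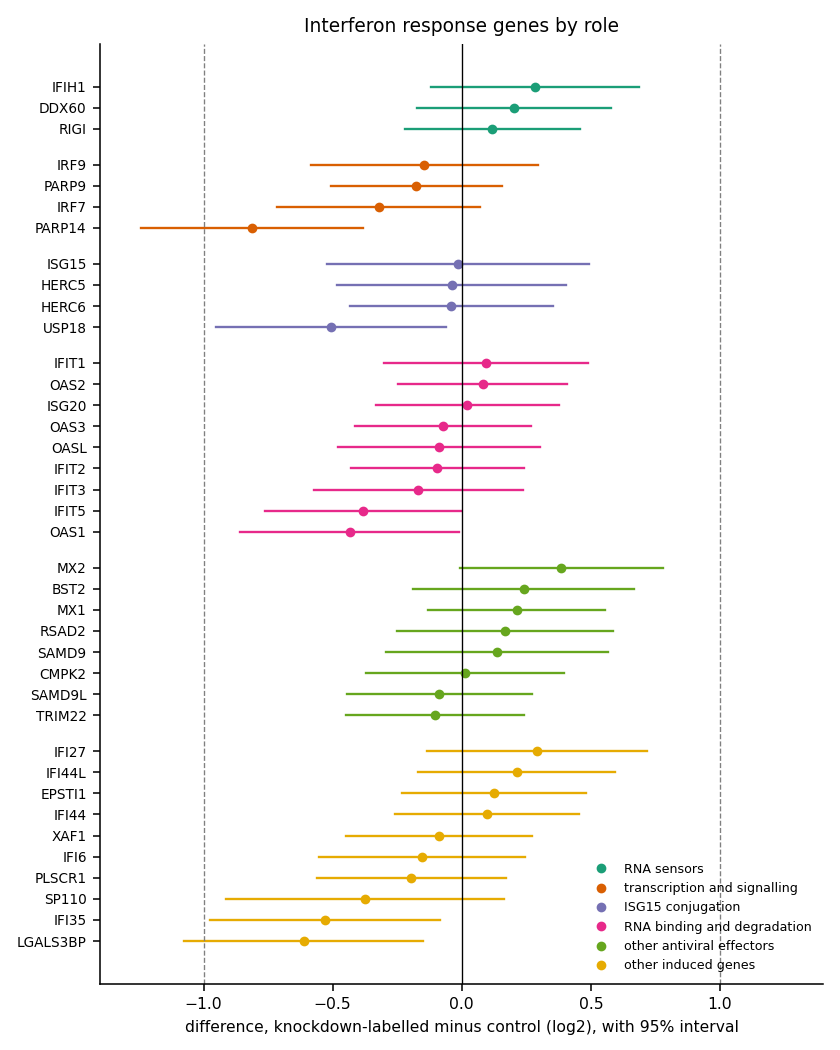
Difference in signal between knockdown-labelled and control arrays (log2, horizontal axis) for the 38 measured interferon response genes, grouped by role. Points are differences of the means of 3 arrays each, bars are 95% intervals from limma, and dashed lines mark a 2-fold change. Intervals of 36 genes stay between the dashed lines, and those of PARP14 and LGALS3BP cross the lower one.

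The signal of H2AX itself did not show the labelled knockdown. Its probe set read 5.28, 5.17 and 5.49 in knockdown-labelled replicates 1, 2 and 3, against 5.11, 5.27 and 5.26 in the control replicates (log2 signal). The groups overlapped, and the difference was 0.10, with a 95% interval of −0.25 to 0.45 and an adjusted p of 0.823 in limma. A 2-sided exact permutation test gave p = 0.4, and 3 against 3 arrays allow no p below 0.1. Directions here are those of the arrays with that label and not of a measured loss of H2AX. Over all genes, signals of bright probe sets tended to be lower and those of dim ones higher in knockdown-labelled arrays, and knockdown-labelled replicate 1 stood at one end of the first principal component (49.2% of the variance) with control replicate 1 at the other. The epithelial keratins KRT8 and KRT18 lay at percentiles 99.8 and 99.3 of mean signal, while EPCAM, another epithelial marker, lay at percentile 17.2, and of the blood and immune markers PTPRC lay at percentile 7.97, CD14 at 60.5 and CD68, a lysosomal protein, at 99.4.

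At an unadjusted p under 0.05, 6 of the members had a lower signal with the knockdown label and 0 a higher one. These 6 were PARP14, LGALS3BP, IFI35, USP18, OAS1 and IFIT5. They made up 15.8% of the 38 genes, where 8.38% of all genes were lower and 3.78% higher by the same rule. The count depended on the normalization. With array medians subtracted the same number, 6 of 38, were lower, beside 9.45% of all genes. After quantile normalization 4 were lower, or 10.5% of the list beside 5.58% of all genes, and these were PARP14, USP18, LGALS3BP and PARP9. After cyclic loess 2 were lower, PARP14 and USP18, or 5.26% of the list beside 5.23% of all genes. The 2 groups did not overlap for 6 of the 38 genes, or 15.8%, where this held for 17% of all genes. Of these 6, PARP14, USP18, PARP9 and LGALS3BP were lower (9.82% of all genes were) and MX1 and RIGI were higher (7.17% of all genes were).

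The differences of the members ran with brightness. Of the 22 members among the dimmer 9208 genes 13 were above 0, with a median of 0.10, beside a median of 0.09 over all of those genes. Of the 16 members among the brighter 9209 genes 13 were below 0, with a median of −0.26, beside −0.14 over all of them. All 6 members at an unadjusted p under 0.05 lay among the brighter genes, where they were 37.5% of the members and 14.9% of all genes were lower by that rule. In 5 equal bins of mean signal, dimmest first, the medians of the members were 0.15, −0.04, −0.05, −0.13 and −0.43, and those of all genes 0.15, 0.07, −0.01, −0.10 and −0.25. The brightest bin held 5 members, OAS1, IFI35, IFI6, IRF9 and LGALS3BP, all below 0, as were 85.3% of its genes.

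**Figure D2:**
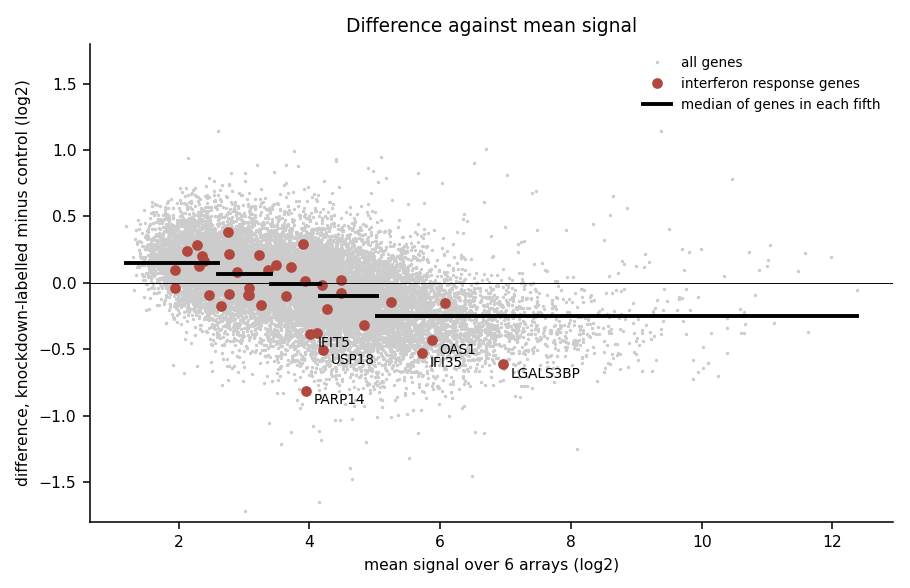
Difference between knockdown-labelled and control arrays (log2, vertical axis) against mean signal over the 6 arrays (log2, horizontal axis) for all 18417 genes (grey) and the 38 interferon response genes (red), with the 6 members at an unadjusted p under 0.05 named. Black bars are the medians of all genes in 5 bins of equal size and are 0.15 in the dimmest bin and −0.25 in the brightest. PARP14 lies far below the bar of its bin.

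Sites in the promoters of these genes are shown here because the element they resemble is the one the pathway acts through. Promoter windows of 300 bases (250 before and 50 after the start) from RefSeq on GRCh38.p14 were found for 32 of the 39 members. The letters GAAA, any 2 bases and GAAA again, the core of the interferon-stimulated response element, were searched on both strands, and overlapping matches on 1 strand were joined. At least 1 window held them for 22 of 32 members (68.8%), where this was so for 4.38% of 27305 genes. A match is a run of letters and was not tested as a binding site. USP18, a member at an unadjusted p under 0.05, had no window. The sites below are given for members at an unadjusted p under 0.05 and for well-known targets. For each gene 1 site is printed, and the windows of IFIT5, IFIT1, MX1 and IFIH1 held further sites that are not printed. Each reads 5′ to 3′ on the strand where the letters read as above, with the match in capitals.
PARP14 (chr3:122680803-122680826, plus strand, match beginning 29 bases before the start): aggaaacGAAAGCGAAAgagtcaa
LGALS3BP (chr17:78979965-78979988, minus strand): gtttctgGAAATCGAAAgtagact
IFIT5 (chr10:89414516-89414539, minus strand): agcttcaGAAACCGAAActtaata
ISG15 (chr1:1013377-1013406, plus strand, 2 joined matches): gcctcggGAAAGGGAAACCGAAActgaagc
IFIT1 (chr10:89392500-89392523, minus strand): gaaagggGAAAGTGAAActaaagc
MX1 (chr21:41420562-41420585, plus strand): cagaaatGAAACCGAAActgaatt
IFIH1 (chr2:162318689-162318712, minus strand): gagaatcGAAACAGAAAccaaagt

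The windows of OAS1, IFI35, RIGI and IRF9 did not hold these letters. The search allowed only a gap of 2 bases, and the windows of OAS1, IFI35 and RIGI hold GAAA, 1 base and GAAA again. A window without a match can therefore hold a related site. The 22 measured members with a match had a median difference of 0.06, with 12 above 0 and 3 lower at an unadjusted p under 0.05. The 9 measured members whose windows had no match had a median of −0.09, with 2 above 0 and 2 lower by that rule. Among all 587 measured genes with a match in a window 293 differences were above 0 and 294 below, and 8.69% were lower at an unadjusted p under 0.05, beside 9.24% of 13652 measured genes with windows and no match.

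The bases before the start of PARP14, the member with the lowest difference, and of ISG15, whose group means were nearly equal, are printed with their matches in capitals.
PARP14 (chr3:122680589-122680838, plus strand): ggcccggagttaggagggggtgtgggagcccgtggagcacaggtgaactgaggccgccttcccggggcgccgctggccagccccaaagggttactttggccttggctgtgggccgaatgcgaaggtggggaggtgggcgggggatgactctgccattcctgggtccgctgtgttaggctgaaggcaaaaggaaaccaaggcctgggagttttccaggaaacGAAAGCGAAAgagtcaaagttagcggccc
ISG15 (chr1:1013247-1013496, plus strand): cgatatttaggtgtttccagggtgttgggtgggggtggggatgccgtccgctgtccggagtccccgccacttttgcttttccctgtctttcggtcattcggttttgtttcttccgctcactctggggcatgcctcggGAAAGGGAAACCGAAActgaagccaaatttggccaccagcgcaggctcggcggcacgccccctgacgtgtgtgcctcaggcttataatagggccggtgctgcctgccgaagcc

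The sensors of viral RNA were all slightly above 0, and none passed the threshold (3 measured, median 0.20). RIGI, a helicase that recognises short RNA with a triphosphate end, read 3.76, 3.83 and 3.75 in knockdown-labelled replicates 1, 2 and 3, against 3.74, 3.74 and 3.49 in the control replicates (log2 signal). The lowest knockdown-labelled value lay just above the highest control value, and the difference was 0.12 ± 0.16 (SE, limma adjusted p = 0.779), or 0.034 without control replicate 3. IFIH1, which encodes MDA5, the sensor of long double-stranded RNA, read 2.67, 2.12 and 2.5 in the knockdown-labelled arrays, against 2.32, 2.20 and 1.92 in the controls. Its groups overlapped, with a difference of 0.28 ± 0.19 (SE, limma adjusted p = 0.544). The difference was 0.16 without knockdown-labelled replicate 1 and 0.44 without knockdown-labelled replicate 2. DDX60, a helicase that promotes signalling by RIG-I, had a difference of 0.20, and 0.04 without knockdown-labelled replicate 1. IFIH1 and DDX60 were both in the dimmest bin, whose genes had a median of 0.15.

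The transcription factors and signalling genes were all below 0 (4 of 5 measured, median −0.25), and 0 passed the threshold. IRF9, a DNA-binding factor of the response, read 5.18, 4.96 and 5.37 in the knockdown-labelled arrays, against 5.5, 4.87 and 5.57 in the controls (log2 signal). The groups overlapped and the difference of −0.14 ± 0.20 (SE) turned to 0.02 after quantile normalization and 0.03 after cyclic loess. IRF7, the factor that drives a second wave of interferon genes, read 4.64, 4.97 and 4.43 in the knockdown-labelled arrays, against 4.80, 5.16 and 5.04 in the controls. Its groups overlapped through knockdown-labelled replicate 2, with a difference of −0.32 ± 0.18 (SE, limma adjusted p = 0.486). The difference was −0.20 without knockdown-labelled replicate 3 and −0.46 without knockdown-labelled replicate 2.

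PARP14, an ADP-ribosyltransferase that acts in interferon and STAT6 signalling, had the lowest difference of all members. Its signals read 3.27, 3.55 and 3.81 in the knockdown-labelled arrays, against 4.71, 4.16 and 4.2 in the controls (log2 signal, replicates 1 to 3). Every knockdown-labelled array lay below every control array, with a gap of 0.34 between the groups. The means were 3.54 ± 0.27 and 4.36 ± 0.31 (SD, n = 3 each). The difference was −0.81 ± 0.20 (SE), a change in linear signal of −43% with a 95% interval of −57.7% to −23.3%, and did not pass the threshold (limma adjusted p = 0.224). The gene lies in the middle bin of brightness, whose genes had a median of −0.01, and 0.299% of genes in that bin had a difference as low or lower. It was the only member at an unadjusted p under 0.05 in the main setting and in all 15 alternatives. Its difference ran from −0.95 to −0.64 over them, and its adjusted p from 0.0604 with array weights to 0.928 without control replicate 1.

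PARP9, a partner protein of the E3 ligase DTX3L, is the neighbour of DTX3L on chromosome 3. It read 2.57, 2.67 and 2.46 in the knockdown-labelled arrays, against 2.75, 2.75 and 2.72 in the controls (log2 signal). The groups did not overlap, and the difference was −0.18 ± 0.15 (SE, limma adjusted p = 0.655), beside a median of 0.07 over the genes of its bin. It was −0.32 after quantile normalization and −0.30 after cyclic loess. DTX3L read 4.86, 4.98 and 5.02 in the knockdown-labelled arrays, against 5.38, 5.18 and 5.36 in the controls. It too had no overlap between groups, with a difference of −0.36 ± 0.16 (SE, limma adjusted p = 0.394), and the median of all genes in its bin was −0.25.

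**Figure D3:**
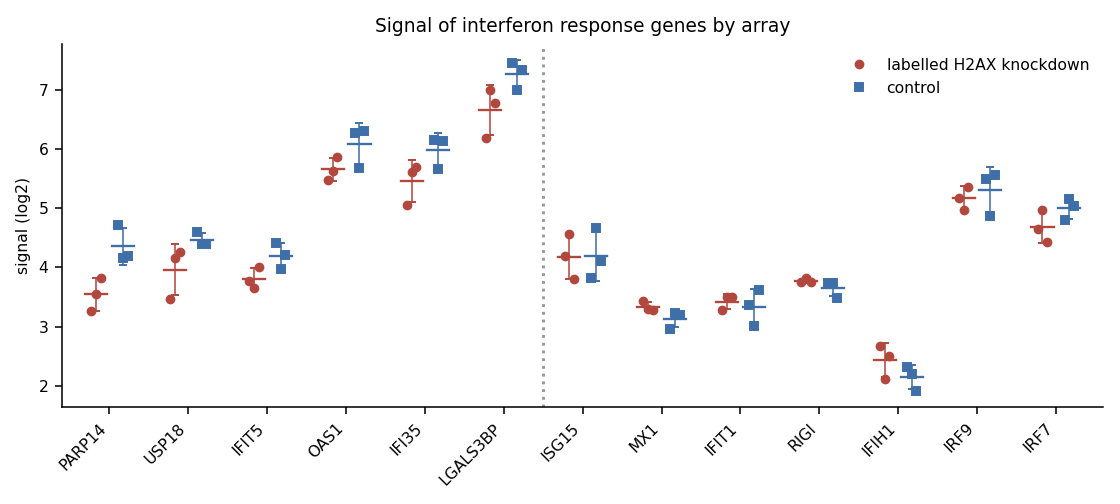
Signal (log2, vertical axis) of 13 interferon response genes in 3 knockdown-labelled arrays (red circles, left of each pair) and 3 control arrays (blue squares), with horizontal lines at the means and bars of 1 SD. Left of the dotted line are the 6 genes at an unadjusted p under 0.05, and right of it are 7 well-known genes of the response. PARP14 shows the widest gap, while the values of ISG15 and IFIT1 intermix.

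Of the genes of ISG15 conjugation, 3 of 4 lay within 0.05 of 0 and 0 passed the threshold. ISG15, the ubiquitin-like modifier, read 4.19, 4.56 and 3.80 in the knockdown-labelled arrays, against 3.82, 4.67 and 4.11 in the controls (log2 signal). The groups intermixed, with means of 4.18 ± 0.38 and 4.2 ± 0.43 (SD, n = 3 each) and a 95% interval of the difference from −0.52 to 0.49. Its ligase HERC5 and the related HERC6, which are neighbours on chromosome 4, had differences of −0.04 and −0.04. USP18, the protease that removes ISG15 and also restrains signalling at the receptor, read 3.47, 4.16 and 4.26 in the knockdown-labelled arrays, against 4.60, 4.40 and 4.40 in the controls. The groups did not overlap, but knockdown-labelled replicate 1 was by far the lowest. The difference was −0.51 ± 0.21 (SE, limma adjusted p = 0.369), and −0.26 without that array. Without knockdown-labelled replicate 3 it was −0.65.

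The proteins that bind or degrade RNA gave no common direction (9 measured, 3 above 0 and 6 below, median −0.09, 0 past the threshold). IFIT1, which binds RNA lacking a methylated cap, read 3.27, 3.49 and 3.49 in the knockdown-labelled arrays, against 3.36, 3.01 and 3.61 in the controls (log2 signal). The controls spanned the knockdown-labelled values, and the difference was 0.09 ± 0.18 (SE, limma adjusted p = 0.855). IFIT2 and IFIT3, partners of IFIT1 in a complex, had differences of −0.09 and −0.17. IFIT5, the next gene to IFIT1 on chromosome 10, read 3.77, 3.65 and 4.01 in the knockdown-labelled arrays, against 4.41, 3.97 and 4.21 in the controls. Its groups overlapped slightly, between knockdown-labelled replicate 3 and control replicate 2. The difference was −0.38 ± 0.18 (SE, limma adjusted p = 0.409), and it was at an unadjusted p under 0.05 in 7 of 16 settings.

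OAS1, OAS3 and OAS2 lie side by side on chromosome 12 and encode synthetases of the second messenger that activates RNase L. OAS1 read 5.47, 5.64 and 5.86 in the knockdown-labelled arrays, against 6.28, 5.69 and 6.31 in the controls (log2 signal). Control replicate 2 fell among the knockdown-labelled values, so the groups overlapped. The difference was −0.43 ± 0.20 (SE, limma adjusted p = 0.407), and −0.22 after quantile normalization. Its neighbours OAS3 and OAS2 had differences of −0.07 and 0.08, and OASL, a relative without synthetase activity, had −0.09. The 95% interval of OAS1 ran from −0.86 to −0.01 and overlapped that of OAS3, from −0.42 to 0.27, and no test of their difference was made. ISG20, an exonuclease of single-stranded RNA, had a difference of 0.02.

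Among the other antiviral effectors 6 of 8 were above 0, with a median of 0.15, and 0 passed the threshold. The median of this list lay at percentile 29.5 of mean signal, in a bin where 36.1% of genes were below 0. Its median difference was 0.04 after quantile normalization and 0.04 after cyclic loess. MX1, a dynamin-like GTPase that blocks viral nucleocapsids, read 3.43, 3.29 and 3.29 in the knockdown-labelled arrays, against 2.96, 3.23 and 3.19 in the controls (log2 signal). All knockdown-labelled arrays lay above all controls, by 0.06, and the difference was 0.21 ± 0.16 (SE, limma adjusted p = 0.597), or 0.13 without control replicate 1. Its neighbour MX2, a relative with activity against HIV, read 3.28, 2.86 and 2.69 in the knockdown-labelled arrays, against 2.45, 2.52 and 2.70 in the controls. The highest control just exceeded the lowest knockdown-labelled value, and the difference was 0.39 ± 0.18 (SE, limma adjusted p = 0.419). That difference was 0.22 without knockdown-labelled replicate 1 and 0.51 without knockdown-labelled replicate 3. BST2, also called tetherin, which holds budding virus at the cell surface, had a difference of 0.24, and 0.02 without knockdown-labelled replicate 1. RSAD2, which encodes viperin and lies beside CMPK2, a nucleotide kinase, on chromosome 2, had a difference of 0.17, and −0.02 without that array. CMPK2 was at 0.01. The neighbours SAMD9 and SAMD9L, factors that restrict poxviruses, were at 0.14 and −0.09, and TRIM22, an E3 ligase with antiviral activity, was at −0.10.

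The remaining members are interferon-induced genes of varied or less settled function (10 measured, 4 above 0 and 6 below, median −0.12, 0 past the threshold). LGALS3BP, a secreted glycoprotein that binds galectins, was the brightest member. It read 6.18, 7.0 and 6.78 in the knockdown-labelled arrays, against 7.46, 7.01 and 7.34 in the controls (log2 signal). The groups were apart by only 0.004, between knockdown-labelled replicate 2 and control replicate 2. The difference was −0.61 ± 0.21 (SE, limma adjusted p = 0.325). It was −0.38 without knockdown-labelled replicate 1, −0.79 without knockdown-labelled replicate 2 and −0.37 after quantile normalization. The median of all genes in the bin of LGALS3BP was −0.25.

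IFI35, a leucine zipper protein induced by interferon, read 5.06, 5.62 and 5.71 in the knockdown-labelled arrays, against 6.16, 5.67 and 6.14 in the controls (log2 signal). Control replicate 2 lay below knockdown-labelled replicate 3, so the groups overlapped. The difference was −0.53 ± 0.21 (SE, limma adjusted p = 0.357), −0.33 without knockdown-labelled replicate 1 and −0.69 without control replicate 2. SP110, a nuclear body protein, was at −0.37, at −0.10 without knockdown-labelled replicate 1 and at −0.61 without control replicate 2. IFI6, a mitochondrial protein that opposes apoptosis, was at −0.15, and 0.10 after cyclic loess. IFI27, another mitochondrial protein of the same family, was at 0.29, and at 0.088 without control replicate 1. PLSCR1, a phospholipid scramblase, was at −0.19, and at −0.060 without knockdown-labelled replicate 1. The neighbours IFI44L and IFI44 on chromosome 1 were at 0.21 and 0.10. EPSTI1 was at 0.13, and XAF1, an antagonist of the apoptosis inhibitor XIAP, at −0.09.

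The 38 members were not all moved by the same arrays. Of the 6 arrays, knockdown-labelled replicate 1 held the highest signal for 10 members and the lowest for 9, where it was the highest for 25.2% and the lowest for 28.4% of all genes. Control replicate 3 held the highest for 10 and the lowest for 8 members, where it was the highest for 9.17% and the lowest for 12.6% of all genes. Knockdown-labelled replicate 2 held the highest for 1, and for 12.9% of all genes. Leaving out 1 array moved the difference by more than 1.5 times or turned it for 34 of the 38 members. This rule is a ratio, which differences near 0 pass easily, and it was not counted over all genes. Arrays named as left out for single genes are mostly those whose removal brought the difference nearest to 0. Leaving out another array could move that difference away from 0. Measured against the mean of the controls, the 16 bright members had medians of −0.44, −0.08 and −0.20 in the knockdown-labelled arrays (replicates 1 to 3). In control replicates 1, 2 and 3 these medians were 0.09, −0.13 and 0.08. The bright genes of the whole array had −0.26, −0.07 and −0.10 in the knockdown-labelled arrays and 0.08, −0.07 and −0.01 in the controls. The medians of the bright members thus leaned the same way as the array in all but control replicate 3. Without knockdown-labelled replicate 1, PARP14 alone among the members was at an unadjusted p under 0.05 (5.33% of all genes were lower by that rule), and the same held without control replicate 1 (3.34%).

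**Figure D4:**
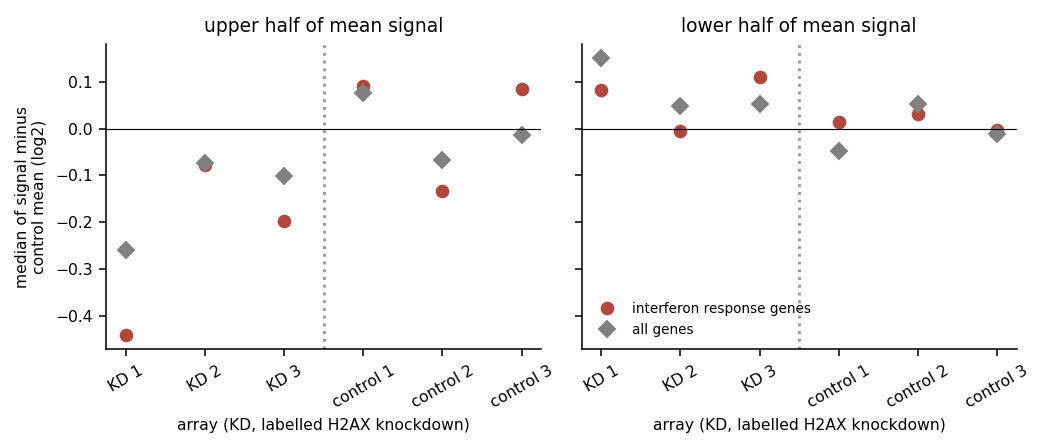
Median of signal minus the mean of the 3 controls (log2, vertical axis) in each array for interferon response genes (red circles) and all genes (grey diamonds), for genes above (left) and below (right) the median of mean signal. Bright members stand lowest in knockdown-labelled replicate 1, at −0.44, where bright genes in general stand at −0.26.

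The rest of the pathway was described with 4 lists of 114 genes chosen for their known function, of which 103 were measured. None passed the threshold (limma, lowest adjusted p = 0.233), and at an unadjusted p under 0.05 there were 3 higher and 12 lower, beside 3.78% and 8.38% of all genes. The groups did not overlap for 4 genes that were higher and 15 that were lower, together 18.4% of the 103 beside 17% of all genes. The median of the 103 was −0.12, and −0.07 after cyclic loess.

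Genes that encode the interferons themselves, type III included, were mostly dim and mostly slightly above 0 (15 of 20 measured, 13 above 0, median 0.20). Their median mean signal lay at percentile 3.86 of genes. After quantile normalization the median difference was 0.01. The type III genes IFNL1, IFNL2 and IFNL3 were brighter, at percentiles 50.1, 41.7 and 93.5, and IFNL3 had a difference of −0.22. IFNB1, the type I interferon that most cells make first, read 1.65, 2.09 and 2.13 in the knockdown-labelled arrays, against 1.47, 1.84 and 1.68 in the controls (log2 signal). The groups overlapped, with a difference of 0.30 ± 0.18 (SE, limma adjusted p = 0.513), and its probe set lay at percentile 2.22 of mean signal. IFNA21 was at 0.45 (limma adjusted p = 0.408), and at 0.20 without knockdown-labelled replicate 1, its highest array. The alpha interferon genes are so alike in sequence that single members are uncertain.

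Among the sensors and adaptors that induce interferon, the DNA sensor CGAS and the kinase TBK1 leaned opposite ways. CGAS read 4.05, 3.63 and 3.83 in the knockdown-labelled arrays, against 3.69, 3.48 and 2.99 in the controls (log2 signal). Its groups overlapped through control replicate 1, and the difference was 0.45 ± 0.20 (SE, limma adjusted p = 0.398). The difference was 0.25 without control replicate 3 and 0.60 without control replicate 1. TBK1, the kinase that phosphorylates IRF3, read 4.28, 4.73 and 5.11 in the knockdown-labelled arrays, against 5.45, 5.15 and 5.26 in the controls. Its groups did not overlap, with a difference of −0.58 ± 0.21 (SE, limma adjusted p = 0.327), and −0.36 without knockdown-labelled replicate 1. The related kinase IKBKE read 4.40, 4.56 and 4.63 in the knockdown-labelled arrays, against 4.94, 4.95 and 4.89 in the controls. These groups were apart with little spread inside each, and the difference was −0.40 ± 0.15 (SE, limma adjusted p = 0.357). TLR3, the endosomal receptor of double-stranded RNA, was at −0.62 ± 0.22 (SE, limma adjusted p = 0.316), with overlapping groups. The adaptors STING1 and MAVS were at −0.13 and −0.14 and the factor IRF3 at −0.19.

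Of the receptor and signalling genes 18 of 19 were measured, 5 above 0 and 13 below, with a median of −0.24, and −0.10 after cyclic loess. The median of this list lay at percentile 76.1 of mean signal, in a bin where 66.1% of genes were below 0. JAK1, the kinase bound to IFNAR2, read 6.33, 6.58 and 6.66 in the knockdown-labelled arrays, against 7.07, 6.98 and 6.93 in the controls (log2 signal). The groups did not overlap, and the difference was −0.47 ± 0.16 (SE, limma adjusted p = 0.314), beside a median of −0.25 over all genes in its bin. PIAS1, a SUMO ligase, was at −0.66 ± 0.18 (SE, limma adjusted p = 0.273). The receptor chains IFNAR1 and IFNAR2 had differences of −0.35 and −0.49 with overlapping groups, and −0.17 and −0.20 without knockdown-labelled replicate 1. TYK2, the kinase bound to IFNAR1, was at 0.06.

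Further genes induced by type I interferon (30 of 33 measured) had 5 above 0 and 25 below, a median of −0.26, and 1 higher and 6 lower at an unadjusted p under 0.05, beside 3.78% and 8.38% of all genes. The 6 lower made up 20% of the list, whose median lay at percentile 67.8 of mean signal, in a bin where 11.3% of genes were lower by that rule. The 6 lower genes were the RNase ZC3H12A (−0.70, and −0.45 without knockdown-labelled replicate 1), the lysosomal reductase IFI30 (−0.69), IFITM2 (−0.60), LAMP3 (−0.56), the E3 ligase TRIM21 (−0.48) and DTX3L. IFITM3, a membrane protein that blocks viral entry, was the higher one, at 0.44 with no overlap between groups. IFITM2 and IFITM3 are close copies in sequence, so their opposite signs are uncertain. Genes of interferon gamma response and antigen presentation (24 of 25 measured, 11 above 0 and 13 below) had a median of −0.04, with the proteasome activator PSME1 at −0.66 (limma adjusted p = 0.233). Fibroblast markers, as a check on other cell types, were above 0 for 6 of 6, where 48.5% of all genes were. Of these, DCN and LUM lay in the dimmest bin, where 18.3% of genes were below 0, at 0.46 and 0.47 beside its median of 0.15. COL1A2, COL3A1 and PDGFRB lay in the middle bin, at 0.39, 0.15 and 0.34 beside its median of −0.01. COL1A1 lay in the brightest bin, at 0.04 beside its median of −0.25. The median over the 6 fibroblast markers was 0.37, and 0.28 after quantile normalization and 0.27 after cyclic loess. The summed linear signal of the fibroblast markers ran from 86.5 to 103 in the knockdown-labelled arrays and from 71.7 to 94.4 in the controls. Epithelial markers were above 0 for 2 of 6, and CLDN1 was the lowest, at −0.74 with no overlap between groups (limma adjusted p = 0.209). Markers of blood and immune cells were above 0 for 4 of 7, with sums from 351 to 447 in the knockdown-labelled arrays and from 470 to 633 in the controls. CD68 made up most of these sums, and without it they ran from 48.6 to 50.9 in the knockdown-labelled arrays and from 44.6 to 56.0 in the controls. A part of these markers in the differences above was not tested.

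**Figure D5:**
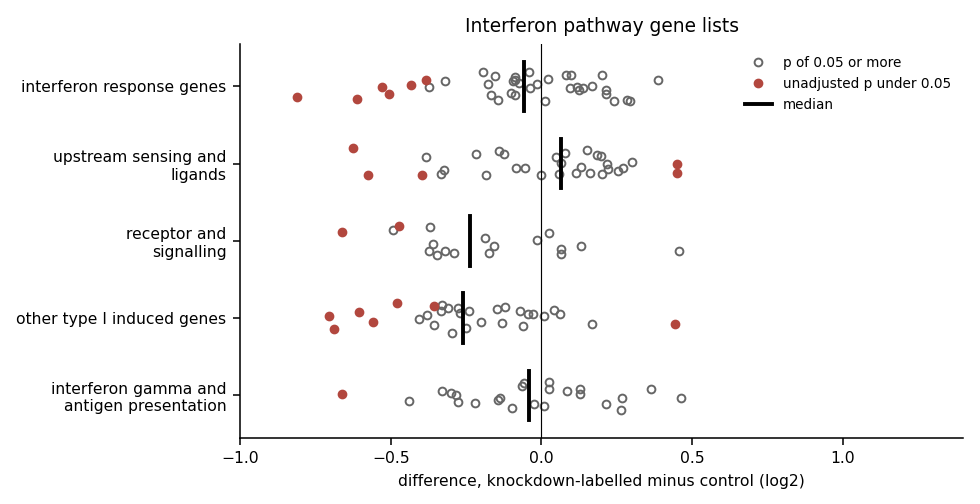
Difference between knockdown-labelled and control arrays (log2, horizontal axis) for the 38 interferon response genes and 4 lists of other pathway genes. Each point is a gene, filled red at an unadjusted p under 0.05, and black bars are medians, which run from −0.26 for other type I induced genes to 0.07 for upstream sensing and ligands.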

How the data were processed

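Biotinylated cRNA from 6 µg of total RNA of each of 6 samples was measured on Affymetrix arrays, per the labels' protocols. The deposited values are log2 signals of 33297 probe sets, made by the authors with RMA per the submitters' processing notes (no version is named in these sources). The log2 scale was taken from the values, 0.611 to 13.2. RMA compresses differences of dim probe sets. Signal over background could not be read, so no gene was called absent, and the number of arrays limits the precision.

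Probe sets were named through the platform annotation, which can be old: 19460 had 1 gene and were used. The brightest probe set of each gene was kept. Groups came from the sample titles. Genes were tested with limma 3.58.1 (R 4.3.3), 2-sided, without covariates, with Benjamini-Hochberg adjustment over 18417 genes and a threshold of 0.05. The procedure was tested on simulated data.

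The members and lists were chosen with earlier results of these data known. Every member is named. Array values are given for those at an unadjusted p under 0.05, those whose groups do not overlap with a difference of 0.5 or more (log2), and ISG15, MX1, IFIT1, OAS1, RIGI, IFIH1, IRF9 and IRF7. Of other pathway genes, a chosen 10 and those at an unadjusted p under 0.05 were named. Array values of MX2, PARP9, DTX3L, TBK1 and IKBKE were added after they were seen. Those of IFNB1, CGAS and JAK1, from the chosen 10, are also given, while other pathway genes are named without array values. Alternatives were the replicate block, a filter at the median signal, 3 other normalizations, other uses of probe sets, other variance models and each array left out.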

Additional observations from a re-analysis of the deposited data

How the results depend on the processing

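No interferon response gene passed the threshold in limma under any of the 15 alternatives. Their median difference stayed between −0.11 and −0.03, except with the filter at the median signal, where it was −0.26 over the 16 members left. Of the other pathway genes 1 passed with array weights (IFI30, −0.85, adjusted p = 0.027). Over all genes the count of 6 was 3 with the replicate block, 16 with the filter, 0 after quantile normalization or cyclic loess (1495 and 1511 at an unadjusted p under 0.05), 3 with the mean of all probe sets, 191 with array weights, and 0 to 9 with 1 array left out (0 without knockdown-labelled replicate 1 or 2 or control replicate 1 or 3, 1 without control replicate 2, 9 without knockdown-labelled replicate 3). The labels do not say that equal replicate numbers pair the samples. Deviations from the group means correlated at −0.31, −0.02 and 0.07 for numbers 1, 2 and 3, and at −0.39 to 0.37 between unequal numbers. With 3 arrays in each group these values cannot show whether equal numbers share an experiment. The block changed no call among the members.

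Of 885 alternatives over 61 named genes, 838 kept direction and side of the threshold, 46 turned direction and 1 gained a call. After quantile normalization the turned values were 0.022 (IRF9), 0.00016 (ISG15), −0.029 (OAS2), 0.072 (IFI6), −0.10 (IFI44), −0.041 (EPSTI1) and 0.034 (MAVS). After cyclic loess they were 0.030 (IRF9), 0.015 (ISG15), −0.015 (OAS2), 0.10 (IFI6), −0.094 (IFI44), −0.029 (EPSTI1), 0.025 (IRF3) and 0.084 (MAVS). With array weights they were 0.12 (ISG15), 0.28 (HERC5), −0.070 (IFIT1), 0.017 (IFIT3), −0.10 (ISG20), −0.0072 (RSAD2) and 0.023 (STING1). With array medians subtracted they were −0.026 (ISG20) and −0.037 (CMPK2). With 1 array left out, the difference ran from −0.20 to 0.22 for ISG15, −0.27 to 0.14 for HERC5, −0.14 to 0.12 for HERC6, −0.066 to 0.24 for IFIT1, −0.20 to 0.056 for OASL, −0.070 to 0.11 for ISG20, −0.019 to 0.36 for RSAD2, −0.067 to 0.17 for CMPK2, −0.051 to 0.30 for SAMD9, −0.21 to 0.0012 for XAF1, −0.21 to 0.017 for STING1 and −0.25 to 0.026 for MAVS. The cause was not tested.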
